A study of Mus musculus with 23 samples.

Results

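The collagens are a family of secreted and membrane-bound matrix proteins whose chains wind into triple helices, and the results below concern every probe of the array whose annotated symbol names a collagen chain gene (Col, a type number, a, a chain number). The rule found 37 genes with 59 probes among 16593 named genes and 25697 probes. RNA came from the brains of C57BL/6J mice with different numbers of copies of an altered Meis1, a homeobox transcription factor gene. At embryonic stage E12.5 the tissue was labelled forebrain, from 5 wild types (wt, 3 males and 2 females), 6 heterozygotes (het, 3 males and 3 females) and 5 homozygotes (hom, 3 males and 2 females). In adults of 23 weeks it was labelled brain, from 3 wild-type and 4 heterozygous males, with no adult homozygotes. Each animal gave 1 Illumina array. The sources used here do not describe the change made to Meis1, and the allele is named in the labels of the adults only. The title of the series speaks of ganglionic eminences, a smaller region than the labelled forebrain, so which part of the forebrain was sampled is not settled here. The embryos fall into litters 509, 542, 549 and 551, taken here from the leading digits of the animals' numbers, since no label states the litter. Litter 549 holds no wild type, and litter can also stand for a day of dissection or an array run, which cannot be told apart.

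Fibrillar collagens, such as the type I chains Col1a1 and Col1a2, assemble into the fibres of connective tissue. The type IV chains form the sheet-like network of basement membranes, and the smaller classes link fibrils, span cell membranes or release endostatin-like fragments. In the embryonic brain, fibrillar collagens are made mainly by the mesenchyme that becomes the meninges, and type IV collagen by vessels and the pial surface, so a change in these transcripts in bulk RNA can reflect fewer cells of a type or less RNA per cell, which cannot be told apart. Levels below are normalised log2 intensities, in which a difference of 1 is a doubling. They are compared for each probe between samples and never between probes, because probes bind unequally.

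Meis1 was measured first as the check of the labels. Its level was 9.98 ± 0.17 (SD, n = 5) in wild-type, 9.62 ± 0.14 (n = 6) in heterozygous and 8.80 ± 0.23 (n = 5) in homozygous embryos, and in limma the homozygotes were lower than the wild types by −1.22 ± 0.12 (SE, adjusted p = 0.000287). Embryonic heterozygotes differed from the wild types by −0.40 ± 0.11 (SE, limma adjusted p = 0.999), so this contrast did not pass the threshold. The adults stood at 8.17 ± 0.32 (n = 3) for wild types and 7.56 ± 0.34 (n = 4) for heterozygotes, with an adjusted p of 0.387. Adults were normalised apart from embryos, so these levels are not on the embryos' scale. Array medians of the raw signal ranged from 164 to 210 at E12.5 and from 119 to 143 for the adult arrays, with 52.3% to 55.1% of probes detected. No source used here tells where the Meis1 probe lies relative to the altered sequence. The number of arrays limits the precision. Both females of litter 551, wild-type female 1 and heterozygous female 1, stood apart in several collagens. Their values are therefore named beside the results they touch.

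Of the 59 collagen probes, 37 probes of 28 genes passed the filter on dim signals at E12.5 and 28 probes of 22 genes in adults, whereas 17 probes were above background on no array. All 11 fibrillar genes, 4 of 6 basement membrane genes and 2 of 3 beaded filament genes of type VI had a probe that passed at E12.5. The 9 genes with no such probe included Col10a1, a chain of growing cartilage, and the type IV chains Col4a3 and Col4a4 of kidney and other specialised basement membranes. Probes of 19 genes were detected on all 16 embryonic arrays and those of 15 genes on all 7 adult arrays. Where a gene had several probes, the brightest stands for it below.

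The chains Col4a1 and Col4a2 wind together in 1 molecule, the common type IV collagen of vessel walls, and their genes stand head to head. The RefSeq promoter windows (GRCm38.p6, 250 bases before to 50 after the annotated start) are shown because they overlap and the levels of both genes were closely correlated. The Col4a1 window is chr8:11312777-11313076 on the minus strand and the Col4a2 window chr8:11312555-11312854 on the plus strand, each printed 5′ to 3′ on its own strand. Capitals mark the 78 bases that both windows share, read on opposite strands.
Col4a1: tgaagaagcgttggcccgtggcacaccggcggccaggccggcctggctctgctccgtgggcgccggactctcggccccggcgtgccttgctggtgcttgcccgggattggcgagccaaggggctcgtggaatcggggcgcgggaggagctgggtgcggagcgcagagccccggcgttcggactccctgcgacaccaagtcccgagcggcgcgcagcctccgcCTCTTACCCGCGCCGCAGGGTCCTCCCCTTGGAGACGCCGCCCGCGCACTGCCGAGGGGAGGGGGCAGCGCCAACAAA
Col4a2: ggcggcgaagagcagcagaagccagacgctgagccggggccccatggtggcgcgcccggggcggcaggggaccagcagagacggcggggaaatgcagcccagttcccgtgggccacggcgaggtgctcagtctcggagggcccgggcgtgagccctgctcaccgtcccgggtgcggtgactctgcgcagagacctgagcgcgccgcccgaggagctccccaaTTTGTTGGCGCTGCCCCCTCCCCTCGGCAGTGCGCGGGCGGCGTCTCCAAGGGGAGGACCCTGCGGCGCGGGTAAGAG
The annotated starts lay 21 bases apart. The CCAAT box letters CCAAT, searched on both strands, occurred 1 time in each window, and 37.4% of all 32851 promoter windows held them. The GC box letters GGGCGG occurred 1 time in the Col4a1 window and 3 times in the Col4a2 window, against 35.7% of all windows with at least 1. Neither TATAAA, the TATA box, nor TGACAG, a core of Meis binding sites, was in either window, and 13.6% and 19.2% of all windows held them. Windows existed for 30 of the 37 collagen genes, 33 windows in all, of which 36.4% held CCAAT, 60.6% GGGCGG, 15.2% TATAAA and 21.2% TGACAG. These matches describe letters and show no binding. Col4a1 with Col4a2 was the only pair of collagen genes whose windows overlapped.

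Across the 16 embryos Col4a1 and Col4a2 rose and fell together. Col4a1 stood at 11.35, 11.28, 11.43, 10.77 and 11.23 in the wild types, at 11.18, 11.34, 11.64, 11.19, 11.79 and 11.40 in the heterozygotes, and at 11.52, 11.50, 11.75, 11.35 and 11.67 in the homozygotes, males before females in each group. Col4a2 stood at 11.33, 11.05, 11.07, 10.47 and 10.85 in the wild types, at 10.85, 11.16, 11.24, 10.80, 11.36 and 11.19 in the heterozygotes, and at 11.22, 11.42, 11.39, 11.13 and 11.41 in the homozygotes. Wild-type female 1 was the lowest of all 16 for both genes. Pearson's r was 0.90 and Spearman's rho 0.86, with permutation p-values adjusted over 10 pairs of 5e-05 and 0.000133. The relation held with litter means subtracted (r = 0.92, adjusted permutation p = 0.0002), without the embryos farthest from the median (r = 0.83) and without both females of litter 551 (r = 0.80, adjusted permutation p = 0.00155).

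Col4a1 also followed Pecam1, an adhesion protein of endothelial cells, with r = 0.86 and rho = 0.88 (adjusted permutation p = 5e-05 and 0.000133). The value was 0.86 with litter means subtracted, 0.80 without the embryos farthest from the median and 0.86 without both females of litter 551. Col1a1, the main chain of fibrous connective tissue, followed Col4a1 with r = 0.84 and rho = 0.87 (adjusted permutation p = 0.0001 and 0.000133), and r was 0.85 within litters and 0.80 without both females. Its r with Foxc1, a transcription factor of the meningeal mesenchyme, was 0.65 and rho 0.69 (adjusted permutation p = 0.0143 and 0.00925). That r was 0.86 with litter means subtracted (adjusted permutation p = 0.000967) and 0.58 without the embryos farthest from the median, and it was 0.43 without both females of litter 551 (adjusted permutation p = 0.178), where rho was 0.58 (adjusted permutation p = 0.0485). Both females were low in Col1a1 (9.57 and 9.59), in Foxc1 (7.84 and 7.98) and in Pecam1 (7.81 and 7.69).

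**Figure D1:**
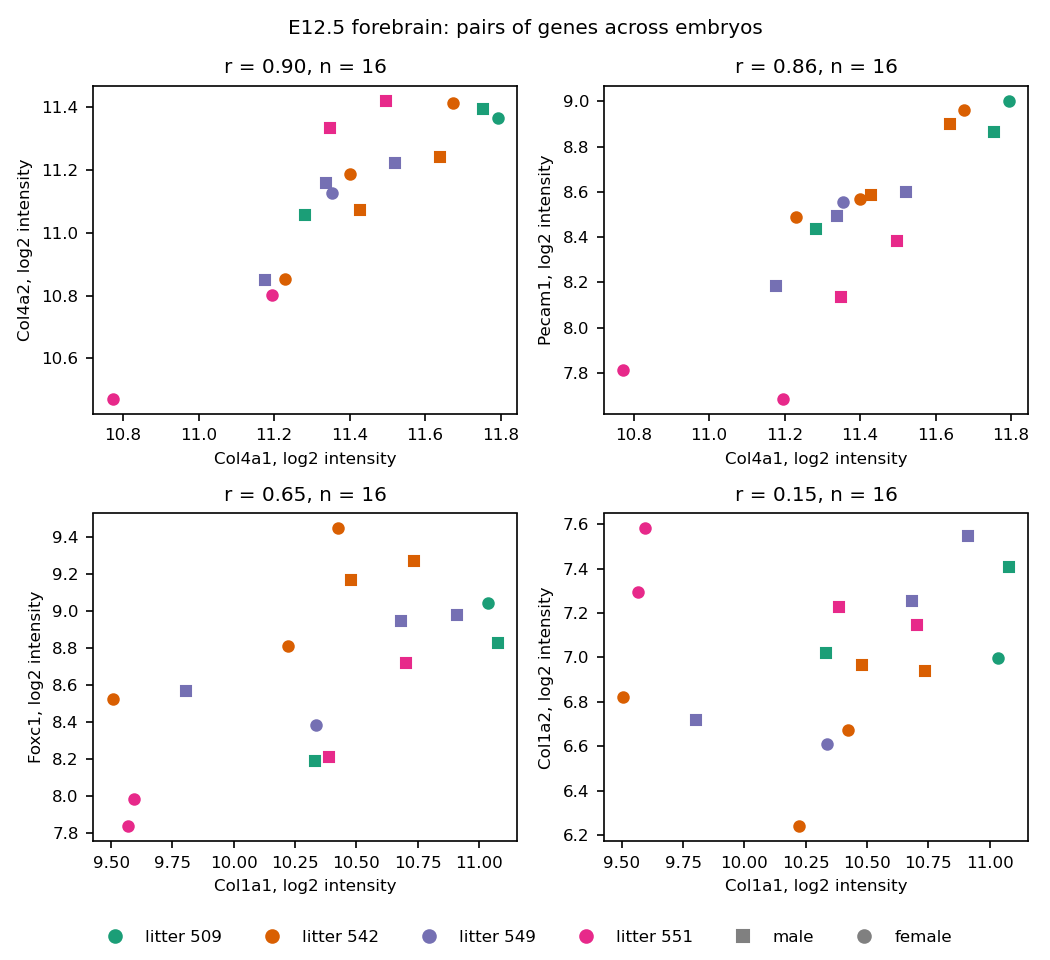
Levels (log2 intensity) of 4 pairs of genes across the 16 E12.5 embryos, coloured by litter, with squares for males and circles for females. Col4a1 lies close to a line with Col4a2 and with Pecam1, whereas Col1a1 and Col1a2 do not, and both females of litter 551, with 1 female of litter 542, sit at the left edge of the Col1a1 panels.

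Probes for chains of the same molecule did not always move together. Col1a1 and Col1a2 form the type I trimer, yet their r over 16 embryos was 0.15 and rho 0.24 (adjusted permutation p = 0.636 and 0.466). Col1a2 stood at 7.23, 7.02, 6.96, 7.29 and 6.82 in the wild types, between 6.24 and 7.58 (median 6.97) in the 6 heterozygotes and at 7.55, 7.14, 7.41, 6.61 and 6.67 in the homozygotes. The females of litter 551 combined a low Col1a1 with a high Col1a2 (7.29 and 7.58). Without both, r was 0.58 and rho 0.64 (adjusted permutation p = 0.0483 and 0.0337), so this pair's value rests on those 2 embryos. Within litters the r was 0.26 (adjusted permutation p = 0.538). Each of these genes had 1 probe, and of 10 pairs of probes for the same gene only 1 passed. Whether the low r belongs to the chains or to the probes was not tested.

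The remaining pairs were looked at for chains that share fibrils or filaments. Col6a1 with Col6a2, chains of the beaded filaments around cells, gave r = 0.71 and rho = 0.65 (adjusted permutation p = 0.00558 and 0.0153), r = 0.55 with litter means subtracted (adjusted permutation p = 0.093, but 0.0488 for rho) and 0.82 without the embryos farthest from the median. Col1a1 with Col5a1, a chain that starts type I fibrils, gave r = 0.59 and rho = 0.59 (adjusted permutation p = 0.0262 and 0.0288), 0.56 with litter means subtracted (adjusted permutation p = 0.0858), 0.41 without the embryos farthest from the median and 0.83 without both females of litter 551. Col1a1 with Col3a1, a fibrillar chain of soft tissue, gave r = −0.38 and rho = −0.16 (adjusted permutation p = 0.203 and 0.6), and r = 0.12 without both females. These values hold for the brighter Col3a1 probe only. Its r with the dimmer Col3a1 probe was 0.01, and the dimmer probe was not tested against Col1a1. Col2a1, the main chain of cartilage, gave r = −0.29 and rho = −0.35 with Col9a1 (adjusted permutation p = 0.347 and 0.269) and r = 0.12 and rho = 0.14 with Col11a1 (adjusted permutation p = 0.671 and 0.602), both partners in cartilage fibrils. In all, 6 of 10 pairs passed with all embryos. How often other pairs of probes on the array correlate as strongly was not counted, so this count does not set the collagen pairs apart.

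Homozygotes against wild types asked which collagens change when Meis1 is lowered most. No collagen probe of 37 passed an adjusted p of 0.05, where 0.0488% of the 14340 probes did. Before adjustment, 8 of the 37 were higher at p under 0.05, a share of 21.6% against 5.74% of all probes, and 1 was lower, against 6.07%. The 8 were probes of Col1a1, Col2a1, Col4a1, Col4a2, Col6a2, Col8a2, Col15a1 and Col24a1, and the lower one was Col5a2. This count moved with single embryos. It was 4 without wild-type male 2 and 4 in males only, 5 without wild-type female 2 or homozygous female 2, and 13 without wild-type male 1. Without both females of litter 551 it was 7.

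Most collagen differences had a positive sign, which a test of each gene alone does not address. The probes were read in the same embryos and several rose and fell together, so they are not independent. The counts of signs and of unadjusted p-values therefore describe these embryos, and no test was run on them. The fitted difference was above 0 for 31 of 37 probes and for 23 of 28 genes, with a median of 0.20 over the probes, against 0.003 and 50.6% positive over all probes. Over the alternatives run on the same 37 probes the positive count ranged from 26 to 34. Within litters, where 1 homozygote stood against 1 or 2 wild types, 30 of 37 differences were positive in litter 509 (median 0.34), 28 in litter 542 (median 0.30) and 18 in litter 551 (median −0.08). Without its females, litter 551 leaves 1 homozygous and 1 wild-type male, and 12 of 37 differences were positive (median −0.19). All 4 basement membrane genes, both beaded filament genes and both endostatin-type genes were positive, as were 7 of 11 fibrillar genes.

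Col1a1 stood at 10.39, 10.33, 10.48, 9.57 and 9.51 in the wild types, at 9.80, 10.68, 10.73, 9.59, 11.04 and 10.22 in the heterozygotes, and at 10.91, 10.70, 11.08, 10.34 and 10.42 in the homozygotes. Both wild-type females were low, and the homozygotes' range overlapped that of the wild types. The fitted difference of homozygotes from wild types was 0.69 ± 0.22 (SE, limma adjusted p = 0.381), and it was 0.75, 0.43 and 0.73 within litters 509, 542 and 551. The value in litter 551 was 0.32 without wild-type female 1. Col4a1 differed by 0.43 ± 0.12 and Col4a2 by 0.44 ± 0.14, with the same adjusted p of 0.381. Their within-litter differences lay at 0.47, 0.35 and 0.44 for Col4a1 and at 0.34, 0.45 and 0.52 for Col4a2. Without wild-type female 1, litter 551 gave 0.15 for Col4a1 and 0.09 for Col4a2.

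Col15a1, an endostatin-type chain of basement membranes, stood at 8.46, 7.89, 8.66, 7.32 and 8.37 in the wild types, at 8.10, 8.34, 8.95, 7.61, 8.53 and 8.87 in the heterozygotes and at 8.45, 8.54, 8.32, 8.50 and 9.11 in the homozygotes. Its low values were again the females of litter 551. The difference of homozygotes from wild types was 0.57 ± 0.19 (limma adjusted p = 0.381), with overlapping groups, and 0.42 without both females (adjusted p = 0.367).

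**Figure D2:**
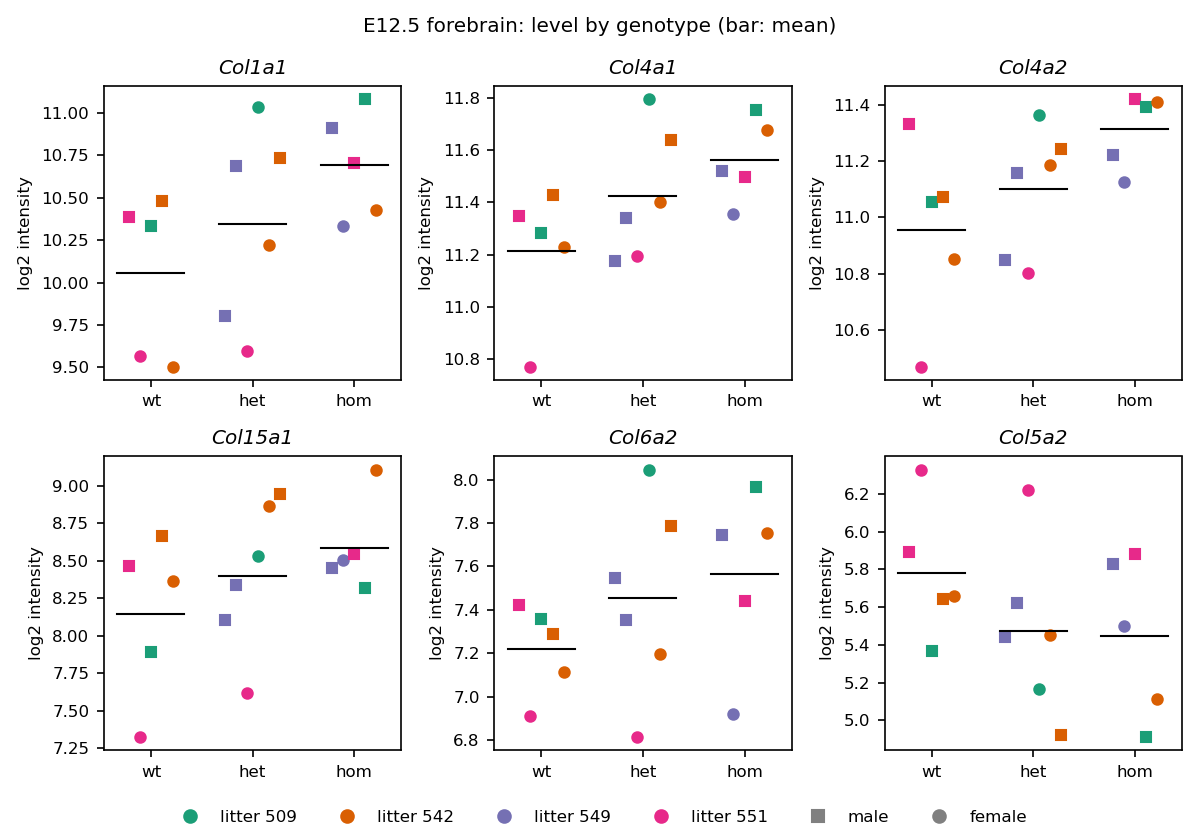
Levels (log2 intensity) of 6 collagen genes in the 16 E12.5 embryos by genotype, coloured by litter, with squares for males, circles for females and a bar at each mean. The genotype groups overlap in every panel, and the females of litter 551 are the lowest wild type and heterozygote for Col4a2, Col6a2 and Col15a1 and the highest for Col5a2.

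Heterozygotes against wild types gave 0 of 37 collagen probes at an adjusted p under 0.05 in limma, where 0% of all probes passed. Before adjustment 1 was higher, against 1.35% of all probes, and 1 lower, against 1.97%. Col4a1 differed by 0.28 ± 0.11, Col1a1 by 0.38 ± 0.21, Col6a2 by 0.31 ± 0.17 and Col5a2, a chain of type I fibrils, by −0.31 ± 0.13, all with an adjusted p of 0.999. Col6a2 stood at 7.42, 7.36, 7.29, 6.91 and 7.11 in the wild types, between 6.81 and 8.04 (median 7.45) in the 6 heterozygotes and at 7.75, 7.44, 7.97, 6.92 and 7.75 in the homozygotes, again with overlap. The fitted difference was positive for 29 of 37 probes (median 0.15, against −0.001 over all probes), but in males only for 14 of 37 (median −0.05). Without heterozygous female 2 it was positive for 24 of 37 (median 0.03), and without wild-type male 1 the count higher before adjustment became 7.

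Homozygotes against heterozygotes gave 0 of 37 at an adjusted p under 0.05, where 0.0697% of all probes passed, and 0 in either direction before adjustment, against 3.20% higher and 5.13% lower. The count of higher probes became 6 without heterozygous female 2 and 5 without wild-type male 1. The smallest p-values belonged to Col8a2, a short chain of sheet-like networks (0.38 ± 0.21), Col4a2 (0.22 ± 0.12), Col2a1 (0.29 ± 0.18) and Col18a1, whose dimmer probe differed by 0.21 ± 0.11, with adjusted p of 0.653 or less. Col1a1 differed by 0.31 ± 0.19 (adjusted p = 0.657). Col8a2 stood at 6.76, 5.16, 6.17, 6.31 and 5.45 in the wild types, at 5.72, 6.53, 6.36, 6.54, 6.03 and 5.68 in the heterozygotes and at 6.51, 6.45, 6.47, 6.61 and 6.65 in the homozygotes. The homozygotes lay within a narrow band inside or just above the range of the heterozygotes. Col2a1 stood at 11.13, 10.16, 10.66, 10.10 and 10.35 in the wild types, at 10.43, 10.76, 10.79, 10.23, 10.75 and 10.53 in the heterozygotes and at 11.03, 10.78, 10.67, 10.52 and 11.32 in the homozygotes, with overlap in each comparison.

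**Figure D3:**
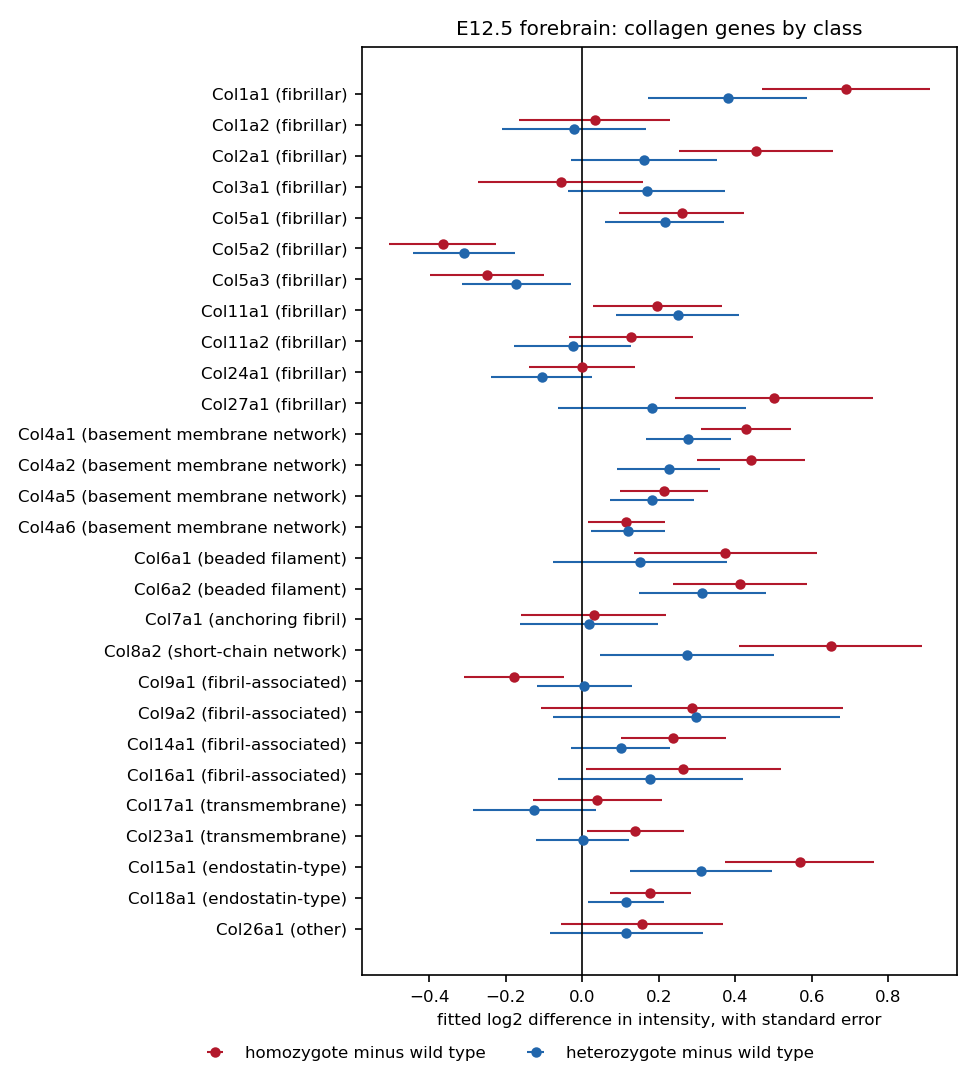
Fitted log2 differences from wild type, with standard errors, for the 28 collagen genes with a probe above the filter at E12.5, ordered by class, for homozygotes (red) and heterozygotes (blue). Most points lie right of 0, Col1a1 and Col8a2 farthest among the homozygotes, and Col5a2 lies farthest left.

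The genes that act on collagen were counted over the same contrast of homozygotes with wild types, in which none of the collagen-related lists had a member past the adjusted threshold. Of the enzymes that assemble and process chains, 20 of 22 tested were positive (median 0.19), led by Loxl2, a cross-linking oxidase (0.46 ± 0.16), and Plod2, a lysyl hydroxylase (0.41 ± 0.14). Fibril-binding matrix proteins were positive in 8 of 9 (median 0.45), with Thbs1, thrombospondin, at 0.85 ± 0.20 (limma adjusted p = 0.341). Basement membrane partners were positive in 7 of 8 (median 0.25), led by Nid1, which bridges laminin and type IV collagen (0.39 ± 0.12, adjusted p = 0.381). Receptors were positive in 4 of 4 (median 0.09) and breakdown enzymes with their inhibitors in 6 of 10 (median 0.07).

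Markers of other cell types differed by list. Meningeal and mesenchymal markers were positive in 9 of 12 (median 0.26, Foxc1 0.57 ± 0.17, adjusted p = 0.381). Their summed linear level was 7967 to 11340 in the wild types, 8250 to 10420 in the heterozygotes and 9252 to 11030 in the homozygotes. Endothelial markers were positive in 6 of 8 (median 0.18, Pecam1 0.41 ± 0.14), with sums of 2957 to 4052, 3304 to 3670 and 3085 to 3740. All 12 meningeal and all 8 endothelial markers of the lists with a probe passed the filter. Pericyte markers were positive in 4 of 7 (median 0.01) and neural crest and skin markers in 7 of 7 (median 0.10), with none past the test. Platelet markers were positive in 0 of 6 (median −1.23), and 3 of them were lower past the adjusted threshold. Their part in the collagen differences was not tested.

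More collagen probes passed the test of litter than any test of genotype, though not beyond the share of all probes. In limma's F-test over the 4 litters, 7 of 37 probes (18.9%) of 6 genes passed an adjusted p of 0.05, while 34.0% of all probes did. The 6 genes were the fibrillar Col3a1, Col5a2 and Col24a1, the basement membrane chains Col4a5 and Col4a6, and Col15a1. Leaving out heterozygous male 2, heterozygous female 1, heterozygous female 3 or homozygous female 2 gave 4 probes, and so did leaving out both females of litter 551.

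Col3a1 (probe ILMN_1258629) had the widest litter range. It stood at 7.05, 6.67 and 7.59 in litter 509, at 7.69, 7.96, 7.45, 7.59 and 7.60 in litter 542, at 8.23, 7.49, 7.89 and 7.79 in litter 549 and at 8.20, 7.96, 8.88 and 9.06 in litter 551. Litters 509 and 551 did not overlap. The fitted litter terms spanned 1.39 (adjusted p = 0.00265), and 1.06 without both females of litter 551 (adjusted p = 0.0394).

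Col5a2, whose gene neighbours Col3a1 on chromosome 1, had the same order of litters. It stood at 4.91, 5.37 and 5.17 in litter 509, at 5.45, 4.92, 5.11, 5.64 and 5.66 in litter 542, at 5.83, 5.44, 5.62 and 5.50 in litter 549 and at 5.89, 5.88, 6.22 and 6.33 in litter 551. Litter 551 lay above every other embryo. The fitted terms spanned 0.85 (adjusted p = 0.00166), and 0.71 without both females (adjusted p = 0.0314).

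Other chains had another order. Col1a1, Col4a1, Col4a2, Col5a1, Col6a1, Col6a2 and Col9a2 had their highest fitted term in litter 509 and their lowest in litter 549. None of these 7 passed the test. Litter 509 was the lowest in Col5a2 and in the brighter Col3a1 probe, whereas the dimmer Col3a1 probe had its highest term there (0.19). Col1a1 had fitted terms of 0.38, 0.04, −0.22 and −0.20 for litters 509, 542, 549 and 551, a span of 0.60 (adjusted p = 0.17). Meningeal marker sums were 7967 to 9693 in litter 509, 8250 to 10350 in litter 542, 8755 to 10010 in litter 549 and 10080 to 11340 in litter 551, and 7 of the 12 markers passed the litter test, which 34.0% of all probes passed. Their part in the litter differences of the collagens was not tested.

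Among basement membrane chains, Col4a5 stood at 7.50, 7.31 and 7.47 in litter 509, at 7.92, 7.72, 7.75, 7.42 and 7.55 in litter 542, at 7.05, 7.15, 7.33 and 7.56 in litter 549 and at 7.99, 8.09, 7.96 and 7.83 in litter 551. Litter 551 lay above litters 509 and 549. The terms spanned 0.78 (adjusted p = 0.00242) and 0.92 without both females of litter 551. Col15a1 had its highest term in litter 542 (0.55 above the mean of the litters) and its lowest in litter 551 (−0.26), a span of 0.81 (adjusted p = 0.0143). The calls of Col4a6 and Col24a1 were near the threshold. Both Col4a6 probes passed with spans of 0.38 and 0.58 (adjusted p = 0.0388 and 0.0428), and 1 of 2 Col24a1 probes passed with a span of 0.52 (adjusted p = 0.0472). The Col4a6 probes each lost the call in 14 of 20 alternatives and the Col24a1 probe in 15, all 3 without both females of litter 551, whereas Col3a1, Col5a2, Col4a5 and Col15a1 kept theirs in all 20.

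**Figure D4:**
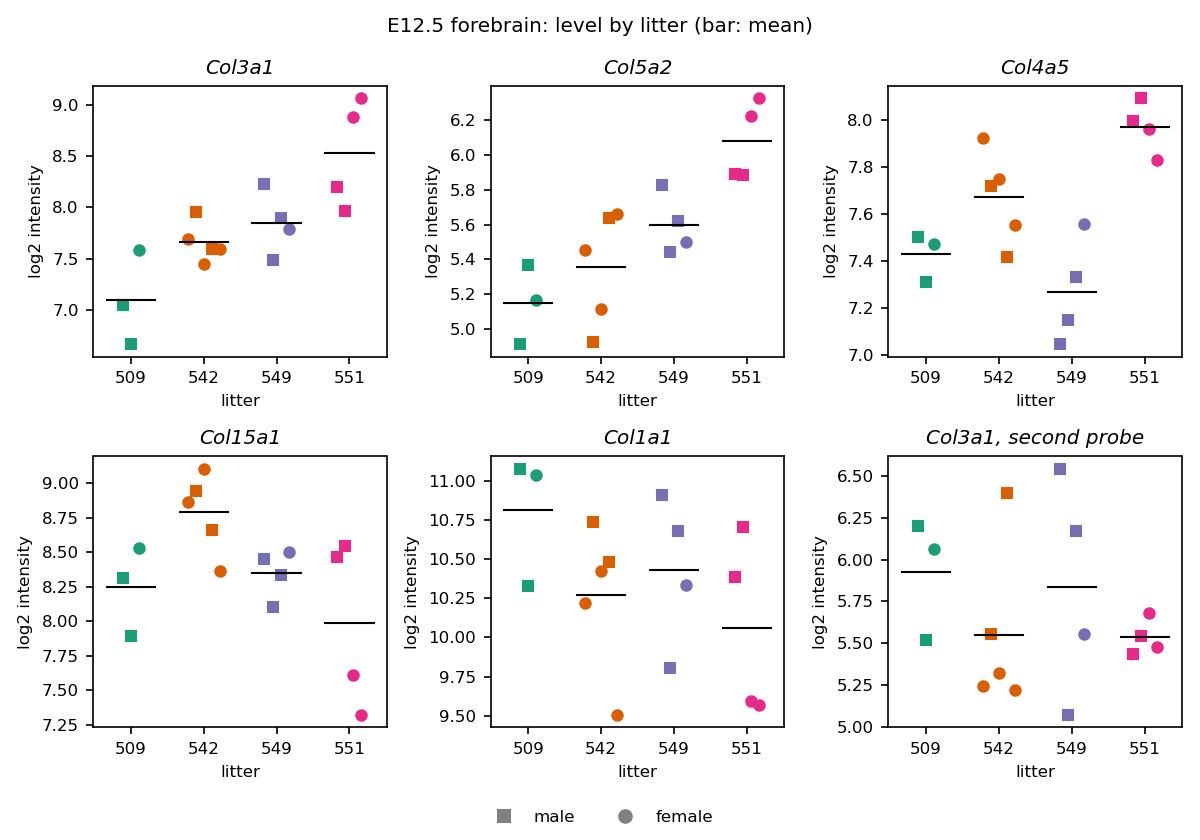
Levels (log2 intensity) of collagen probes in the 16 E12.5 embryos by litter, with a bar at each litter mean, squares for males and circles for females. Col3a1 and Col5a2 climb from litter 509 to litter 551, Col1a1 is highest in litter 509, and the second Col3a1 probe lacks the order of the first.

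Female and male embryos were compared in the same fit. None of the 37 probes passed an adjusted p of 0.05 in limma, where 0.0697% of all probes did, and before adjustment 2 were higher in females, against 2.52%, and 2 lower, against 1.93%. Col4a6, a type IV chain whose gene is on the X chromosome, differed by 0.33 ± 0.08 (adjusted p = 0.566) and was above background in 7 of 7 females and 3 of 9 males. Its levels ran from 5.33 to 5.69 in females and from 4.77 to 5.54 in males, which overlapped. These values are of the brighter Col4a6 probe. A dimmer one ran from 5.11 to 5.93 in females and from 4.64 to 5.65 in males, and its r with the brighter was 0.32. Col1a1 differed by −0.48 ± 0.17, Col11a2, a chain of cartilage fibrils, by 0.32 ± 0.12 and Col6a2 by −0.32 ± 0.14, each with an adjusted p of 0.997. Without both females of litter 551 the Col1a1 difference was −0.35. Leaving out heterozygous female 2 alone raised the count lower before adjustment from 2 to 9.

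In adult brains, heterozygotes against wild types gave 0 of 28 collagen probes at an adjusted p under 0.05 in limma, where 0% of all 14266 probes passed. Before adjustment 2 were higher, against 5.02%, and 1 lower, against 5.62%. Without adult heterozygous male 1 these counts were 5 and 0. Col17a1, a membrane-spanning chain best known from skin, stood at 5.02, 5.03 and 4.78 in the wild types and at 5.47, 5.17, 5.33 and 5.23 in the heterozygotes, which did not overlap (0.36 ± 0.11, adjusted p = 0.381). It was above background in 2 of 3 wild types, and its other 2 probes had opposite differences of −0.06 and −0.12. Col24a1, a fibrillar chain known from developing bone, stood at 5.50, 5.38 and 5.41 against 5.51, 5.70, 5.89 and 5.92, also without overlap (0.32 ± 0.11, adjusted p = 0.416). Col7a1 did not overlap either (0.18 ± 0.10, adjusted p = 0.512). The nearest arrays of the groups were at 5.50 and 5.51 for Col24a1 and at 6.37 and 6.38 for Col7a1. The share of all probes that separated in this way was not counted. Groups this small can also separate by chance, so the lack of overlap does not set these collagens apart.

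Col27a1, another fibrillar chain of cartilage, stood at 4.87, 5.20 and 5.32 in the adult wild types and at 4.80, 4.97, 4.86 and 4.74 in the heterozygotes (−0.29 ± 0.12, adjusted p = 0.449). Col16a1, a fibril-associated chain, stood at 8.13, 8.06 and 8.24 against 8.19, 8.37, 8.30 and 8.50 (0.20 ± 0.10, adjusted p = 0.49). Both overlapped. Col1a1 differed by −0.03 ± 0.13 (adjusted p = 0.939). Meningeal marker sums were 1939 to 2454 in the wild types and 1621 to 1956 in the heterozygotes, and 2 of 10 such markers tested had positive differences. Their part in these values was not tested.

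The heterozygote difference at E12.5 was tested against that in adults over all 23 arrays. In limma 0 of 38 collagen probes passed, where 0% of all 16352 probes did, and before adjustment 0 were higher, against 3.33%, and 2 lower, against 3.45%. The smallest p-values were those of Col17a1 (−0.60 ± 0.22, adjusted p = 0.604) and of the dimmer Col24a1 probe (−0.43 ± 0.20, adjusted p = 0.726), the 2 lower ones. Col27a1 gave 0.56 ± 0.32, Col1a1 0.42 ± 0.30, Col4a5 0.41 ± 0.24 and Col11a1 0.40 ± 0.21, with adjusted p between 0.767 and 0.812. No collagen was thus shown to respond differently at the 2 stages.

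The widest differences lay between the stages. Wild-type and heterozygous males of both stages were compared after joint normalisation, in which stage, tissue label and array run cannot be told apart. In adults 24 of 38 collagen probes (63.2%) were lower at an adjusted p under 0.05, against 42.3% of all 16352 probes, and 6 (15.8%) were higher, against 35.1%. By gene, 19 of 29 fell and 4 rose. All 4 basement membrane genes and both endostatin-type genes were among those that fell, with 7 of 11 fibrillar genes. A probe could pass the joint filter through the embryos alone, and such a probe can fall but hardly rise. Probes of Col3a1, Col4a6 and Col5a2 and 1 of Col11a1 were above background on 0 of 7 adult arrays, and that of Col4a5 on 2. The counts of falls, also over all probes, include such probes.

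Col2a1 stood at 10.85, 9.89 and 10.38 in the embryonic wild-type males, at 10.15, 10.48 and 10.52 in the heterozygous males, and between 5.18 and 5.86 in the 7 adults. It fell by 4.89 ± 0.15, or 29.7-fold (adjusted p = 2.89e-14), and its second probe, above background on 5 of the 7 adult arrays, fell by 4.64. Col2a1 is also known from the neuroepithelium of the early embryo. Of the cartilage markers listed, Matn1, Matn3 and Cnmd were above background on 0 of 16 embryonic arrays and Acan on 1. The others, Sox5, Sox9 and Hapln1, were above background on 16, 16 and 12. Which cells made the Col2a1 RNA was not tested.

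Col1a1 stood at 10.11, 10.05 and 10.20 in the embryonic wild-type males, at 9.53, 10.41 and 10.46 in the heterozygous males and between 5.86 and 6.44 in the adults, and fell by 4.06 ± 0.15 or 16.7-fold (adjusted p = 3.61e-13). Col26a1, a collagen with an EMI domain, stood at 10.82, 10.51 and 11.18 and at 10.40, 10.99 and 11.18 in these embryos and between 7.04 and 7.27 in adults, and fell by 3.69 ± 0.13 or 12.9-fold (adjusted p = 1.67e-13). Neither gene had overlapping stages. Col3a1 stood between 6.46 and 7.95 in the embryos and was not well above background on any of the 7 adult arrays. It was at least 4.83-fold lower in adults, where the limit is set on each array by the dimmest signal above background (adjusted p = 4.7e-10).

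Col18a1, the endostatin precursor of basement membranes, fell by 2.49 ± 0.14, or 5.63-fold, and Col5a1 fell by 2.43 ± 0.11, or 5.40-fold, with adjusted p-values of 4.91e-11 and 3.37e-12. Of the type IV chains, Col4a1 fell by 1.97 ± 0.10 and Col4a2 fell by 1.59 ± 0.09. Col4a1 stood between 10.90 and 11.37 in the embryos and between 8.91 and 9.39 in adults, and Col4a2 between 10.57 and 11.06 and between 9.20 and 9.37. Both stages were separate for both genes.

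Col24a1 was the clearest rise. It stood at 4.78, 4.63 and 4.99 in the embryonic wild-type males and at 5.25, 4.93 and 5.05 in the heterozygous males, above background in 1 of 6, and at 6.03, 5.88, 5.92, 6.04, 6.28, 6.53 and 6.57 in the adults, above background in 7 of 7. The stages did not overlap, and the fitted rise was 1.22 ± 0.11 (adjusted p = 2.18e-08). A second probe, above background in 2 of 6 of these embryos, rose by 0.66. Both rises are taken against embryonic signals that were mostly not above background, so no fold is given. Col6a1 (0.57 ± 0.17), Col7a1 of the anchoring fibrils of skin (0.47 ± 0.15) and Col16a1 (0.42 ± 0.16) also passed, with adjusted p-values of 0.00689, 0.0111 and 0.0223, but their stages overlapped. A second, dimmer Col6a1 probe rose by 0.93 without overlap. The calls of Col7a1, Col16a1 and the brighter Col6a1 probe did not hold with each array centred on its median. That centring moved the median of all probes from −0.11 to −0.36. The brighter Col6a1 probe was then −0.13, Col16a1 −0.26 and Col7a1 0.05, none past the test, while the brighter Col24a1 probe kept its call. The split of probes went from 24 lower and 6 higher to 22 lower and 3 higher. The value of the dimmer Col6a1 probe under this centring is not given here. With wild types only, the same 3 probes lost their calls. Col16a1 also lost it without embryonic heterozygous male 1 (0.31) or embryonic wild-type male 2 (0.30).

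**Figure D5:**
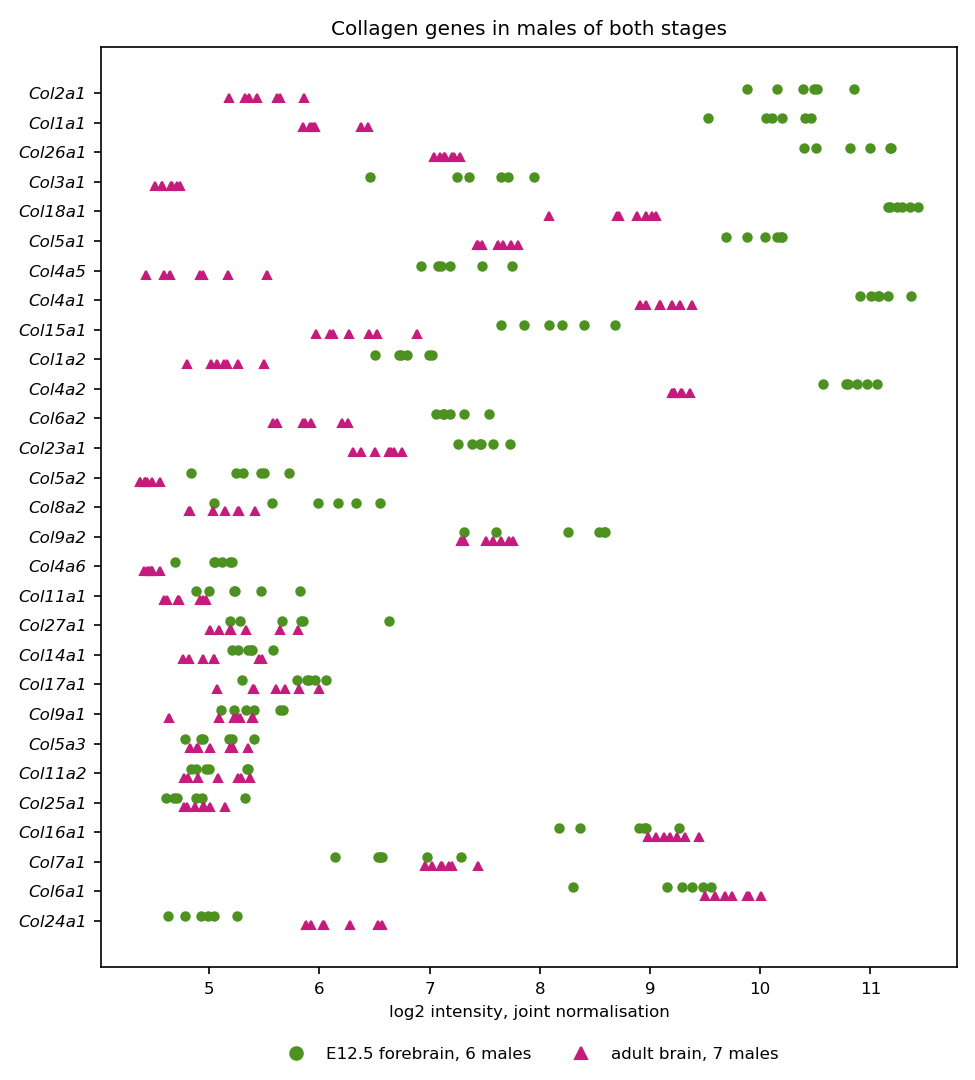
Levels (log2 intensity after joint normalisation) of 29 collagen genes in 6 E12.5 males (circles) and 7 adult males (triangles), ordered by the stage difference. Col2a1, Col1a1 and Col26a1 at the top stand far apart between the stages, and Col24a1 at the bottom is the rise without overlap among the brightest probes.

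The collagen-related lists are read against the 42.3% of all probes that were lower in adults and the 35.1% that were higher. Of the enzymes, 15 of 22 fell and 4 rose, led by Lox, the lysyl oxidase that cross-links fibrils, which fell by 4.01 ± 0.16 (adjusted p = 1.13e-12). Of breakdown enzymes and inhibitors, 5 of 11 fell and 3 rose. Mmp2, a gelatinase, fell by 4.06 ± 0.16 (adjusted p = 8.46e-13), and Timp4, a metalloproteinase inhibitor, rose by 5.43 ± 0.12 (adjusted p = 4.95e-16). Receptors fell in 4 of 4. Fibril-binding proteins fell in 5 of 9 and rose in 2, with Lum, lumican, down by 5.04 ± 0.16 (adjusted p = 5.02e-14) and Fmod, fibromodulin, up by 1.06 ± 0.12 (adjusted p = 4.45e-07). Basement membrane partners fell in 7 of 9. Meningeal and mesenchymal markers, counted without Col1a1 and with Lum in both lists, fell in 8 of 12 and rose in 1, and endothelial markers fell in 5 of 8 and rose in 1. Pericyte markers fell in 1 of 7 and rose in 1, and neural crest and skin markers fell in 7 of 7. Summed meningeal levels were 7967 to 11340 over all embryos and 1621 to 2454 in adults, where Foxd1 was above background on 0 of 7 arrays. These sums come from the separate normalisations of embryos and adults. Their scales differ, so they give no size for a fall between the stages. The part of the listed genes in the fall of the collagens was not tested.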

How the data were processed

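Each of the 23 arrays was from 1 animal. Probe intensity values were deposited as bead-summary signals, not normalised, per the file headers, each with a detection p-value per the file headers. GenomeStudio 2011.1 made them, per the submitters' processing notes. The authors' deposited processed table, of unstated scaling, served only as an alternative. From the signals, limma 3.58.1 in R 4.3.3 computed background-corrected, quantile-normalised log2 values (neqc, offset 16), apart for embryos and adults and jointly for comparisons between stages. A probe was kept if its detection p fell below 0.05 on 5 or more arrays of embryos, or on 3 or more in the adult and joint sets. Embryos were fitted on genotype, sex and litter, with Benjamini-Hochberg adjustment over all kept probes and a threshold of 0.05. Litter is an F-test over litters, whose size is the range of the fitted terms. Correlations used 1e+05 permutations. The fits were tested on simulated data with added changes larger than any collagen difference between genotypes seen here. That test does not tell whether changes as small as these differences would be found. Full statistics went to collagens past the threshold, or to the 4 of smallest p, and always to Col1a1. Where over 12 passed, they went to the 6 largest changes each way. Members, gene lists and pairs were chosen with earlier results of these data known. Nothing says that animals of a group were raised apart, so p-values measure only the spread between these animals. Promoters are RefSeq's, in GRCm38.p6.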

Additional observations from a re-analysis of the deposited data

Results flagged for a closer look

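Of 96 groups of 4 to 6 arrays examined, for 24 collagen genes, 5 held an embryo or adult far from the others. Chance flags about 1 in 20 groups. Each value is the gap to the nearest other array as a share of the group's range. Col17a1 was low in wild-type female 1 at 5.59, against 6.07 to 6.25 in the other wild types (0.72). Col3a1 was high in heterozygous female 1 at 8.88, against 7.49 to 7.96 (0.66). Both animals are the females of litter 551. Col27a1 was low in heterozygous male 1 at 5.41, against 5.85 to 6.07 (0.657). Col15a1 was high in homozygous female 2 at 9.11, against 8.32 to 8.54 (0.712), and without that embryo the difference from wild types stayed on the same side of the threshold. In adults, Col1a1 was high in heterozygous male 2 at 5.77, against 5.41 to 5.43 (0.928).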

How the results depend on the processing

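No collagen probe passed in the genotype or sex comparisons, or in the comparison of the heterozygote effect between stages, under any alternative run (offset, filter, processed table, litter handling, males only, arrays left out). Of 900 alternative values for single genes, 848 kept their direction and side of the threshold, 49 lost a call and 3 turned. Those were Col6a1 (−0.13) and Col16a1 (−0.26) between stages with median centring, and adult Col1a1, which ran from −0.12 to 0.11 as each adult was left out. The litter count ran from 4 to 7 as each embryo was left out and was 4 without both females of litter 551, an alternative chosen after seeing the data, like those without litter 549 and within litter 551 without its females. Pairs that turned were Col1a1 with Col3a1 (0.12) and Col2a1 with Col11a1 (−0.029) without both females, and the latter (−0.028) without the embryos farthest from the median. The stage count ran from 24 to 34 around 30. Same-numbered embryos correlated over 0.1 in 21 of 36 pairs, with a median r of 0.17 against −0.10 for other numbers. Adults did so in 1 of 3 pairs (median 0.09 against 0.03). Every embryo numbered 1 came from litter 549 or 551, so replicate number and litter cannot be fully told apart. The replicate block left 0 collagens called in each genotype comparison, with Col1a1 at 0.64 for homozygotes against wild types. The number of arrays and signals near background limit what the dim chains can show.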

Other observations

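Probes of the same collagen gene often disagreed across the 16 embryos. Of 10 pairs of probes in 8 genes, 1 passed, that of Col2a1 (r = 0.92, rho = 0.91, adjusted permutation p = 0.0001 for both). For Col3a1 the r was 0.01 (rho 0.15, adjusted permutation p = 0.971 and 0.711). Its brighter probe passed the litter test and its dimmer one did not, with fitted terms of −0.65 and 0.19 in litter 509 and 0.74 and −0.15 in litter 551. The Col6a1 probes gave r = 0.51 (rho 0.50, adjusted permutation p = 0.142 and 0.17), and r = 0.80 with litter means subtracted. Which transcripts each probe binds was not tested.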
